A study of Homo sapiens with 15 samples.

Results

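The comparison described here is that of Tubastatin A-treated 6CD2m cells with Tubastatin A-treated WT cells, and its 6 samples were taken by their labels from the 15 samples of the series. All are HT1080 cells, a human fibrosarcoma line. In 6CD2m cells a missense mutation of the endogenous gene leaves KDAC6 without activity in the second of its catalytic domains, and 3 replicates were exposed for 2 days to Tubastatin A at 1 μm. The WT group had 3 replicates that received the same dose for 14 days, with fresh inhibitor at least every 3 days. Every cell compared was therefore exposed to the inhibitor, and the cell line and the duration of exposure changed together and cannot be told apart. Where the same value in 6CD1m cells is given, these are HT1080 cells with the first catalytic domain of KDAC6 inactivated, with 3 replicates at the same dose for 2 days, so that dose and duration match those of 6CD2m cells. Values of further groups are given in places, each with 3 replicates. The 8CDm group is HT1080 cells whose KDAC8 is inactive, exposed for 2 days to the KDAC8 inhibitor PCI-34051 at 5 μm. A further WT group received PCI-34051 at the same 5 μm for 14 days. Whether each mutant line derives from 1 clone is not given in the sources used here, and untreated cells are not analysed here.

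KDAC6, encoded by HDAC6, is a lysine deacetylase found mainly in the cytoplasm, where it removes acetyl groups from α-tubulin, cortactin and the chaperone HSP90. It takes part in microtubule-based transport, cell migration and the clearance of misfolded proteins, and its second catalytic domain carries the activity towards tubulin. Tubastatin A is a hydroxamic acid that was designed to block this domain. The results are ordered by what the genes do: first the genes with the largest differences, then zinc finger proteins, proliferation, signalling, the cytoskeleton and matrix, and metabolism, all away from chromosome 18, and last the genes of chromosome 18.

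Each of the 6 libraries held between 15280794 and 19836640 counts on genes. Replicates of a group correlated across genes with an r of 0.990 to 0.995 on log2 values, and none agreed within counting noise. WT replicate 1 differed more from the other WT replicates (chi-square per gene of 15.4 and 22.9) than these did from each other (4.51). HDAC6 itself was at 22.9, 25.1 and 25.1 CPM (counts scaled to a common library size) in 6CD2m and at 28.1, 23.4 and 25.5 in WT cells, and these ranges overlapped. Its log2 fold change was -0.08 ± 0.12 (SE), with an adjusted p of 0.68, and since the mutation changes an amino acid the RNA level is no check of the genotype. In 6CD1m cells HDAC6 was lower, at 12.4 to 14.2 CPM (6CD2m against 6CD1m, log2 fold change 0.90, adjusted p = 5.4e-05). Of 14 markers of mesenchymal cells 13 were tested, and their sum was 9260 to 10600 CPM in 6CD2m and 15000 to 16600 CPM in WT libraries. Single markers went both ways, with 1 higher and 4 lower at the threshold given below and a median log2 fold change of 0.05. Of 8 epithelial markers 3 were tested and none passed, with CDH1, EPCAM and KRT5 at no more than 3 counts in any library. The epithelial sum was 9.01 to 10.2 CPM in 6CD2m and 4.59 to 8.32 CPM in WT libraries. In contrast, the median log2 fold change of the 3 tested markers was -1.66, so the sum does not give their common direction. PTPRC and CD3E, which define leukocytes, were likewise at no more than 3 counts in any library, whereas LCP1, an actin-bundling protein of leukocytes that tumour cells also make, was 3.60-fold higher in 6CD2m cells. CDH5 was the endothelial marker that was higher (1.39 to 1.66 CPM against 0.166 to 0.194 CPM). The part of these markers in the results was not tested.

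Of 19535 tested genes, 2309 (11.8%) passed a false discovery rate of 0.001 (quasi-likelihood F-test of edgeR, Benjamini-Hochberg adjusted p), with 899 (4.6%) at a higher and 1410 (7.22%) at a lower level in 6CD2m than in WT cells. The split depended on the scaling, since 1211 were higher and 1228 lower with upper-quartile normalization, and 1555 were higher and 1606 lower after correction for GC content. Without WT replicate 1 the number was 1635, and leaving out any other library gave 1440 to 1552. Away from chromosome 18, 13767 protein-coding genes were tested, of which 750 (5.45%) were higher and 1209 (8.78%) were lower, with a median log2 fold change of -0.02. These shares are the background for the counts of each gene group that follow. Among all protein-coding genes that passed, 300 of those that were higher differed by over 4-fold, against 166 of those that were lower, whereas 220 and 704 differed by under 2-fold. Of the protein-coding genes that passed, 71 were at the detection floor in WT cells (no more than 3 counts in each library) and 41 were at the floor in 6CD2m cells. Folds for these are lower bounds against 3 counts per library. A gene at the floor in 1 group enters the test only through its counts in other groups of the series, so such counts are descriptions. Against 6CD1m cells, 8.51% of protein-coding genes away from chromosome 18 were higher in 6CD2m cells and 7.79% were lower.

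The genes with the largest drop away from chromosome 18 encode proteins of the cell surface and the cortical cytoskeleton and signalling proteins. CD9, a tetraspanin that organises adhesion receptors in the membrane (chromosome 12, 6199715 to 6238271 on GRCh38), had 0 counts in every 6CD2m library and 10.0, 10.3 and 9.76 CPM in WT cells, so that it was at least 60.6-fold lower. PLXDC2, a transmembrane protein with a plexin-like domain, was also at 0 in all 6CD2m libraries, against 8.90, 8.36 and 7.86 CPM in WT cells (at least 50.6-fold lower). No 6CD2m library held a read of either gene, although 6CD1m cells had 3.23 to 4.74 CPM of CD9 and 2.02 to 2.95 CPM of PLXDC2. FLNC, the actin crosslinker filamin C (chromosome 7, 128830377 to 128859274), was at 0.592, 0.253 and 0.278 CPM against 258, 252 and 263 CPM, and it was at 191 to 228 CPM in 6CD1m cells. BEX1, an adaptor of neurotrophin receptor signalling, was at least 76.2-fold lower, with 11.4 to 14.3 CPM in WT cells and at most 1 count in a 6CD2m library. GDNF, a ligand of the RET receptor complex, was at least 32.7-fold lower, with 4.26, 6.09 and 5.89 CPM in WT and 5.72 to 7.95 CPM in 6CD1m cells. PTCHD1, a membrane protein related to the Hedgehog receptor Patched, was at least 49.4-fold lower. The Ras-like GTPase RASL10B and the basement membrane protein FREM2 were at least 26.3-fold and 25.8-fold lower, respectively. LPAR3, a receptor for lysophosphatidic acid, fell from 13.9, 11.5 and 10.5 CPM in WT cells to 0.118, 0.253 and 0.222 CPM (log2 fold change -5.84 ± 0.24, adjusted p = 2.8e-10). SHROOM4, which binds actin and shapes the cell cortex, had a log2 fold change of -5.63 ± 0.27. All 10 were also lower than in 6CD1m cells, with adjusted p-values of 1.8e-05 or less. Since the genes were chosen for low values in the same 6CD2m libraries, these p-values are not independent evidence.

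The largest increases were of a different kind. SLITRK4, a synaptic adhesion protein, was at 8.82, 12.3 and 11.5 CPM in 6CD2m cells and had 1 count in each WT library, which makes it at least 61.2-fold higher, and it had 0 counts in 6CD1m cells. LPIN3, a phosphatidate phosphatase of lipid synthesis, was at 8.29, 8.76 and 9.12 CPM against at most 0.111 CPM (at least 49-fold higher). PDGFB, a ligand of the platelet-derived growth factor receptors, was at 8.82, 10.1 and 9.57 CPM and at least 53.3-fold higher than in WT cells. TNFSF15, a cytokine of the tumour necrosis factor family, was at least 55.1-fold higher, and LAPTM5, a lysosomal membrane protein best known from blood cells, at least 85.2-fold. In each of these, every 6CD2m library lay above every WT library, which the rule for choosing the genes required. MAGEC1, a cancer-testis antigen, was at 29.2, 33.9 and 29.1 CPM against 0.111, 0.13 and 0.578 CPM. MARCKS, a substrate of protein kinase C that links actin to the membrane, was at 30.7, 31.2 and 29.8 CPM against 0.553, 0.324 and 0.173 CPM in WT cells. Its relative MARCKSL1 was 2.17-fold lower, at 36.0 to 39.9 CPM against 75.1 to 89.6 CPM. ARHGAP4 was 41.3-fold higher than in WT cells and, at 13.8 to 24.6 CPM, also detected in 6CD1m cells. LAMC3, the γ3 chain of laminin, was 41.2-fold higher (8.87 to 9.77 CPM against 0.166 to 0.259 CPM). TSPY8, at least 58-fold higher, belongs to a multicopy family whose reads cannot be assigned to 1 copy, so its difference is uncertain.

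**Figure D1:**
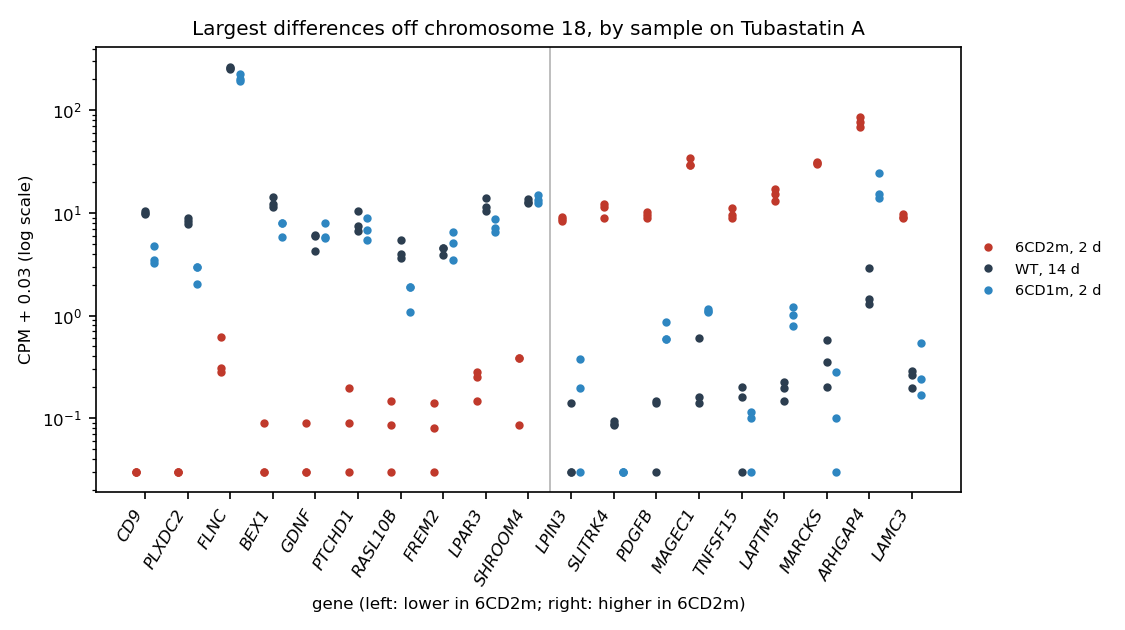
Expression of the 10 genes with the largest decrease and 9 of the 10 with the largest increase in 6CD2m against WT cells, away from chromosome 18 (the multicopy TSPY8 is left out). Points are single libraries, the vertical axis is CPM plus 0.03 on a log scale, and points on the lowest line have 0 counts. In every gene shown the 3 6CD2m libraries lie apart from the 3 WT libraries, because only such genes were chosen. FLNC spans the widest range, from below 1 to above 250 CPM.

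Genes named ZNF encode DNA-binding zinc finger proteins, of which those in the clusters of chromosome 19 mostly carry a KRAB domain and repress transcription, many of them at transposable elements. Of 446 tested ZNF genes away from chromosome 18, 92 were higher in 6CD2m cells and 7 lower, and the family's median log2 fold change was 0.32, against -0.02 for all protein-coding genes. On chromosome 19, 61 of 215 were higher and 1 (ZNF358) was lower, with a median of 0.46. The 783 other genes of that chromosome had 51 higher and 74 lower, with a median of -0.07, but this balance depended on the scaling (89 higher and 66 lower with a median of 0.07 after GC correction, and 60 and 61 with a median of 0.01 with upper-quartile normalization). ZNF genes of the other chromosomes, 231 in number, had 31 higher and 6 lower and a median of 0.19. Against 6CD1m cells, 63 of the chromosome 19 ZNF genes were higher in 6CD2m cells and 0 lower, beside the 8.51% and 7.79% of all genes. The median of these genes relative to WT Tubastatin A cells was 0.03 in 6CD1m cells, 0.36 in 8CDm cells and -0.05 in WT cells on PCI-34051. The number higher on chromosome 19 was 89 with DESeq2, 67 after GC correction and 43 to 50 when each library was left out. On the other chromosomes it was 18 without 6CD2m replicate 1 or 3, 16 without 6CD2m replicate 2, 17 without WT replicate 2, 14 without WT replicate 3 and 21 without WT replicate 1. ZNF358 did not pass when any of the 6 libraries was left out. For all ZNF genes the count of higher genes was 59 to 71, with 60 and 61 without 6CD2m replicates 2 and 3 and 59 without WT replicate 3, and 4 or 5 were lower (4 without any library but 6CD2m replicate 3).

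Part of these genes had almost no reads in WT cells. Of the 61 genes, 19 had no more than 3 counts in each WT library, while their 6CD2m libraries held between 12 and 137 counts. Of the 19, 11 were at the floor in every 6CD1m library and 18 in every library of WT cells treated with PCI-34051, an inhibitor of KDAC8, for 14 days. In 8CDm cells, whose KDAC8 is inactive and which received the same inhibitor for 2 days, 5 were at the floor. ZNF93, a KRAB protein that represses LINE-1 elements, was at 3.79, 3.19 and 3.95 CPM in 6CD2m cells and at 0 counts in all WT and all 6CD1m libraries, at least 20.5-fold higher than in WT cells. ZNF880 was at 3.14, 2.48 and 4.0 CPM and also at 0 in both other groups (at least 18-fold higher). ZSCAN18 and ZFP28, zinc finger genes of chromosome 19 with other names, were at least 24.9-fold and 17.7-fold higher, again with 0 counts in all WT and 6CD1m libraries. Elsewhere in the genome, ZNF648 was 22.8-fold and ZNF660 was 6.45-fold higher, whereas ZNF804A and ZNF365 were 10.1-fold and 2.25-fold lower. Along chromosome 19, the largest share was found between 20000001 and 30000000, where 8 of 18 were higher (median 1.63), and the smallest between 40000001 and 50000000, where 2 of 27 were higher (median 0.26). Reads can be split among near-identical members of this family, so single values are less certain than the count.

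The promoters of ZNF93 and ZNF880, which had 0 counts in WT cells, and of CD9, which had 0 counts in 6CD2m cells, are shown because these genes were read in 1 of the lines compared and not in the other. Each sequence is from RefSeq (GRCh38.p14), runs 5′ to 3′ on the plus strand from 250 bases before to 50 bases after the annotated start, and has CG dinucleotides in capitals. The start site in use in these cells was not measured.
ZNF93, chr19:19900696-19900995: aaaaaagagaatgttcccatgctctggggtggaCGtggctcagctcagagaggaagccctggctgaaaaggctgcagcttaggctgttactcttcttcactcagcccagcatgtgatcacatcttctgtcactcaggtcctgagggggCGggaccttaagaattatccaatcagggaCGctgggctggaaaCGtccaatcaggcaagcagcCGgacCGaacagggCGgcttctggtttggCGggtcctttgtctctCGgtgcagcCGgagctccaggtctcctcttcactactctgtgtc
ZNF880, chr19:52369673-52369972: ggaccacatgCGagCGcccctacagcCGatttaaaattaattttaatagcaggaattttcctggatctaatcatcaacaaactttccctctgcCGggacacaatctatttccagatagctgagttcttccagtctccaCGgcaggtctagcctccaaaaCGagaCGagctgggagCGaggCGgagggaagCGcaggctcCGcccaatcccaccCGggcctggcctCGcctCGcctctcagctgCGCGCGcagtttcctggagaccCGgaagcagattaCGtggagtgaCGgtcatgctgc
CD9, chr12:6199696-6199995: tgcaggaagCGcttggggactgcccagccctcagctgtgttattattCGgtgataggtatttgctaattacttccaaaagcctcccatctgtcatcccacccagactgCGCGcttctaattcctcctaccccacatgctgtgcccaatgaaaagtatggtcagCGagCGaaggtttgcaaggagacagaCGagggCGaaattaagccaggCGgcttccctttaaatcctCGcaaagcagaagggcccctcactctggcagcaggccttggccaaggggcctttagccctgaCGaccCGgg
They hold 10, 20 and 12 CG dinucleotides, respectively. Over the 10985 protein-coding genes tested away from chromosome 18 that matched a promoter, the median was 26 and 79.5% had at least 15. The 54 matched chromosome 19 ZNF genes that were higher had a median of 18.5, with 74.1% at 15 or more, and the 141 that were tested and not higher had a median of 21, with 78%. The 30 matched genes at the floor in 6CD2m cells also had a median of 18.5. DNA methylation was not measured.

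**Figure D2:**
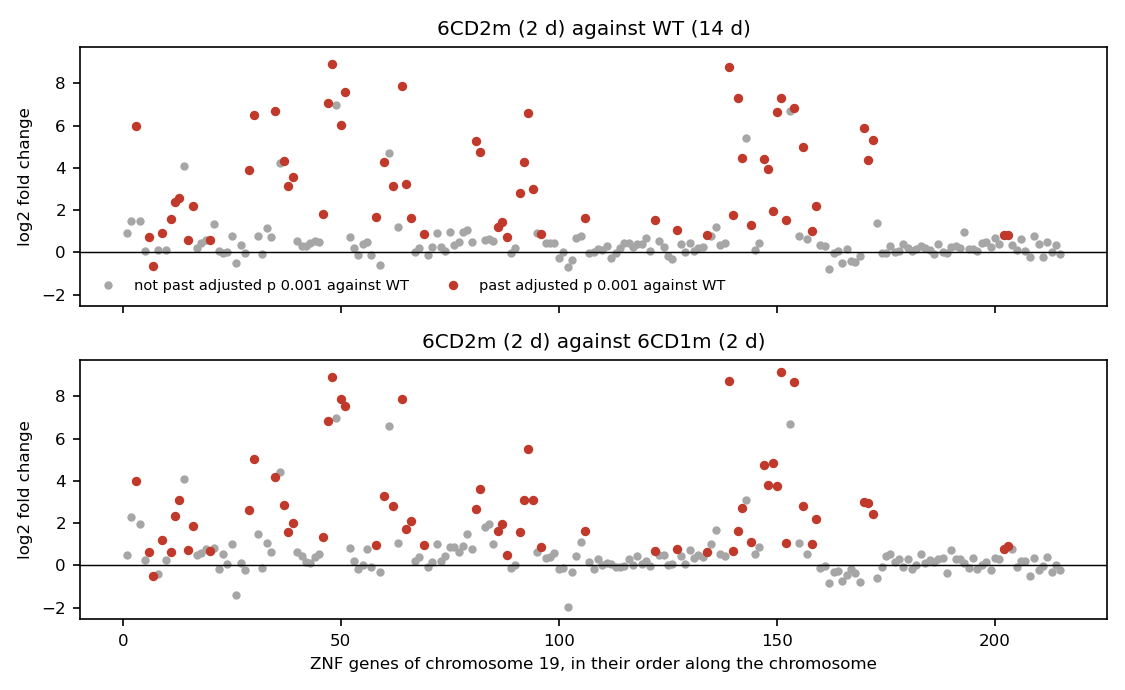
Log2 fold change of each of the 215 tested ZNF genes of chromosome 19, in their order along the chromosome, for 6CD2m against WT cells (top) and against 6CD1m cells (bottom). Red points passed an adjusted p of 0.001 against WT cells. They are spread along the chromosome, with 1 below 0, and values above about 5 come from genes at or near 0 counts in the other group, so that their height depends on the fit.

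Genes of cell division were lower in 6CD2m cells. Histones, which package newly made DNA, had 58 tested members, of which 32 were lower and 0 higher at the false discovery rate of 0.001, with a median log2 fold change of -1.08 (25 to 29 lower when each library was left out). HIST1H2AB fell from 90.4, 83.6 and 92.1 CPM in WT cells to 19.6, 17.1 and 16.8 CPM, a log2 fold change of -2.31 ± 0.12 with an adjusted p of 2.9e-09. HIST1H3D had a log2 fold change of -2.36 ± 0.23. The RNA was depleted of rRNA and not selected for poly(A), so that histone mRNAs without a poly(A) tail are counted. Of 67 genes of the cell cycle and DNA replication, 37 were lower and 0 higher (median -0.74). That count was 20 to 25 when each library was left out, with 20 without 6CD2m replicate 1, 21 without WT replicate 1, 22 without 6CD2m replicate 3, and 23 without WT replicate 2 or 3. CDC25B, a phosphatase that starts mitosis, was 3.63-fold lower (54.3 to 60.7 CPM against 198 to 221 CPM), and CDKN2D, an inhibitor of CDK4 and CDK6, was 3.72-fold lower. FOXM1, a transcription factor of the G2 and M phases, was at 57.5, 60.5 and 55.7 CPM against 122, 125 and 142 CPM. Among 35 kinesins, motor proteins of microtubules, 11 were lower, led by the mitotic KIFC1 and KIF18B (2.47-fold and 2.43-fold), and KIF27, a kinesin linked to cilia, was 1.89-fold higher but did not pass with the 6 libraries alone or without replicate 3 of either line, 6CD2m replicate 1 or WT replicate 2. UHRF1, which recruits the maintenance DNA methyltransferase, was 1.87-fold lower at 72.8 to 80.3 CPM against 142 to 147 CPM. Median log2 differences of the other groups from WT Tubastatin A cells were -0.17 (6CD1m), -0.89 (8CDm) and -0.54 (WT cells on PCI-34051) for histones, and -0.11, -0.67 and -0.53 for the cell cycle genes. Growth rate was not measured, and its part in these values was not tested.

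Of 32 tested genes that p53 activates, 6 were higher and 1 lower, with a median of 0.44. Relative to WT Tubastatin A cells, the median of the list was -0.19 in 6CD1m, 0.50 in 8CDm cells and 0.11 in WT cells on PCI-34051. The count of higher genes in 6CD2m against WT cells was 3 to 5 when each library was left out (3 without 6CD2m replicate 2 or 3 or WT replicate 2). It was 14 with DESeq2, 16 after GC correction and 11 with upper-quartile normalization. MDM2, the ubiquitin ligase that limits p53, was at 819, 830 and 860 CPM in 6CD2m and at 261, 245 and 238 CPM in WT cells (log2 fold change 1.75 ± 0.09, adjusted p = 2.9e-09). It was at 254 to 283 CPM in 6CD1m cells. FAS, a death receptor, was 2.70-fold higher, whereas SPATA18, which acts in the repair of mitochondria, was 5.53-fold lower. Of 45 genes of the ATF4 and unfolded protein responses 7 were higher and 2 lower (median 0.11), and 3 were higher without 6CD2m replicate 2 or WT replicate 2 or 3, and 4 without 6CD2m replicate 3. The ER chaperone cofactor DNAJB9 was 2.59-fold higher and the stress protein NUPR1 also 2.59-fold, while NUPR1 in 6CD1m cells (10.0 to 13.5 CPM) covered the 6CD2m values (10.5 to 11.6 CPM).

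Ligands, receptors and the targets of signalling pathways changed in both directions. Among 38 growth factors, 4 were higher and 6 lower, and 1 was higher without 6CD2m replicate 3 or WT replicate 2 and 2 without 6CD2m replicate 2 or WT replicate 1. MDK, the heparin-binding factor midkine, was at 0.651, 1.27 and 1.22 CPM against 10.8, 10.7 and 12.5 CPM, and PDGFA, which shares its receptors with PDGFB, was 1.75-fold higher. Of 29 receptor tyrosine kinases 8 were higher and 3 lower (median 0.22), and 4 or 5 were higher when any of the 6 libraries was left out. INSR, the insulin receptor, was at 10.1, 9.83 and 10.9 CPM against 0.442, 0.259 and 0.0578 CPM (log2 fold change 5.29 ± 0.45, adjusted p = 4.1e-07). ROR2, a receptor for Wnt5a, was 12.3-fold higher. KIT, the receptor for stem cell factor, was 22.8-fold lower, and EGFR was 2.17-fold lower (168 to 189 CPM against 359 to 437 CPM).

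Feedback regulators and immediate early genes of the MAPK pathway were lower as a list, with 15 of 43 lower, 2 higher and a median of -0.58. When each library was left out, 10 to 13 were lower. DUSP2, a phosphatase of ERK, was at least 4.56-fold lower, and the flow-responsive factor KLF2 was at 9.35, 10.2 and 8.01 CPM against 33.5, 36.2 and 49.7 CPM. KLF4 and MYC, factors of growth and pluripotency, were the 2 that were higher (6.10-fold and 1.78-fold). In the TGF-beta and BMP pathway 13 of 42 were lower and 2 higher, and the lower count was 6 to 9 when each library was left out (6 without 6CD2m replicate 1 and 7 without WT replicate 2). The ligands BMP2 and INHBB fell by 1.93 and 1.90 on the log2 scale. The ligands INHBE (130, 150 and 131 CPM against 14.9, 10.1 and 11.1 CPM) and TGFB2 (89.4 to 105 CPM against 19.3 to 26.3 CPM) were those that were higher. In the Notch pathway 3 of 28 were higher and 6 lower, among them the ligand DLL1 (at least 13.9-fold lower) and the receptor NOTCH3 (4.99-fold). In the Wnt pathway, 5 of 45 were higher and 6 lower (6 and 5 with upper-quartile normalization), with the receptor FZD8 3.75-fold lower and the ligand WNT7A at least 8.66-fold higher. Without any 1 of the 6CD2m replicates 1 Notch gene was higher, without any 1 of the 6 libraries 3 Wnt genes were higher, and without 6CD2m replicate 1 or 2 only 3 Wnt genes were lower.

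Inflammatory mediators included some of the steepest differences. Of 47 interleukins, chemokines and TNF family genes, 8 were higher and 5 lower (3 lower without 6CD2m replicate 1 or 3). IL1B, a cytokine of innate immunity, was at 9.71, 11.3 and 12.1 CPM in 6CD2m and at 332, 251 and 245 CPM in WT cells, with 34.5 to 43.8 CPM in 6CD1m cells. CXCL8, which attracts neutrophils, fell by 5.24 ± 0.22 on the log2 scale (adjusted p = 3.0e-10), to 0.445 to 0.659 CPM. IL7R, a receptor of lymphocytes, was at 114, 146 and 134 CPM against 20.2, 13.8 and 14.6 CPM. Of 47 interferon-stimulated genes 8 were higher and 2 lower (median 0.44), among them IFI27 and IFITM1 (4.82-fold and 3.62-fold higher) and ISG20 (3.91-fold lower). Without any 1 library but WT replicate 1, 4 of them were higher, and without 6CD2m replicate 3 or WT replicate 2 or 3, 1 was lower. CD274, the ligand of the immune checkpoint receptor PD-1, was 4.46-fold higher at 126 to 146 CPM.

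Genes of the cytoskeleton and of cell adhesion were found on both sides. Of 51 actin crosslinkers and focal adhesion genes 9 were higher and 6 lower (5 higher without WT replicate 2 or 3). TAGLN, an actin-binding protein of smooth muscle, was at 100, 117 and 110 CPM against 10.7, 15 and 15.9 CPM. The non-muscle myosins differed in direction. MYH10 was 5.33-fold lower (15.6, 16.6 and 14.9 CPM against 84.3, 80.0 and 86.8 CPM), and MYH9 was 1.56-fold higher. MYL9, a light chain of such myosins, was 2.28-fold higher, but light chains encoded on chromosome 18 were not (given below). Of 18 tubulins 4 were lower and 2 higher (1 and 2 after GC correction), with the neuronal TUBB3 3.61-fold lower, and 0 or 1 was higher when any library was left out and 2 were lower without 6CD2m replicate 1. Of 23 substrates and partners of KDAC6, DYSF, a membrane repair protein, was 4.24-fold higher (140 to 146 CPM against 32.5 to 34.4 CPM), MYH9 was the other that was higher, and TUBA1C was 1.62-fold lower but did not pass when any library was left out. Of 17 tested deacetylases and sirtuins, HDAC5 was the one that passed, at 36.6 to 40.2 CPM against 55.1 to 60.6 CPM, but it did not pass with upper-quartile normalization, with a replicate block or when any library was left out. The guidance receptor PLXNA4, which transmits semaphorin signals, was at 16.0, 16.9 and 18.9 CPM against 400, 402 and 404 CPM (log2 fold change -4.54 ± 0.10, adjusted p = 2.8e-13), and the ligands SEMA3B and SEMA3F were 3.14-fold and 1.70-fold higher. Among 22 integrins, ITGA10, a collagen receptor chain, was 4.26-fold lower, while ITGB2 and ITGB4 were 5.23-fold and 3.96-fold higher. RYR2, a calcium release channel of the heart, was 11.8-fold higher at 52.4 to 62.5 CPM.

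Of 53 proteoglycans and matricellular proteins 8 were higher and 13 lower. FBLN1, which bridges fibronectin and basement membranes, was at least 16.5-fold lower, and EMILIN1, an elastic fibre protein, was 10.3-fold lower but as low in 6CD1m cells (0.349 to 0.758 CPM). GPC4, a cell surface heparan sulphate proteoglycan, was 6.37-fold higher. FN1, fibronectin, was at 393, 486 and 396 CPM against 1250, 1200 and 1180 CPM, and COL6A3 was 2.11-fold lower at 2500 to 2880 CPM. Both collagen processing enhancers were lower, with PCOLCE at a log2 fold change of -3.02 and PCOLCE2 at -4.34, while the collagen chaperone SERPINH1 and the prolyl hydroxylase P3H2 were 2.34-fold and 9.05-fold higher. MMP9, a gelatinase, was at 16.8, 18.7 and 15.4 CPM against 2.82, 1.82 and 1.91 CPM, and TIMP3, an inhibitor of such proteases, was 2.64-fold lower. In the list of epithelial-mesenchymal regulators 8 of 20 were lower, among them TWIST1 (2.17-fold), and TNC was 2.32-fold higher, but the lower count was 3 to 5 when any library was left out. Of 42 cancer-testis antigens 5 were higher and 6 lower (1 lower without 6CD2m replicate 1 or 3 or WT replicate 1 or 3, and 2 without 6CD2m replicate 2), with PAGE2 at 7.58, 6.54 and 9.84 CPM against 0 counts in all WT and 6CD1m libraries.

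In metabolism, 13 of 49 genes of cholesterol and fatty acid synthesis were lower and 2 higher, with a median of -0.45 and 12 or 13 lower when each library was left out (1 higher without 6CD2m replicate 1 or 2 or WT replicate 1 or 3). ELOVL2, an elongase of polyunsaturated fatty acids, was 10.0-fold lower, and ACSL5, which activates fatty acids, was 9.40-fold higher. The median of the list relative to WT Tubastatin A cells was -0.35 in 6CD1m, -0.35 in 8CDm cells and -0.49 in WT cells on PCI-34051, all below 0 as in 6CD2m cells. CA12, a carbonic anhydrase of the cell surface, was at 1.54, 1.52 and 1.5 CPM against 54.2, 45.8 and 52.5 CPM, and its relative CA9 was 4.52-fold lower. They were among 7 of 42 glycolysis and hypoxia genes that were lower, with 0 higher. In the list of NRF2 targets and xenobiotic metabolism 6 of 52 were higher and 9 lower (3 higher without 6CD2m replicate 2 or 3 or WT replicate 2, 2 without WT replicate 3, 5 lower without 6CD2m replicate 2 or 3, and 9 higher and 7 lower after GC correction), with the aldo-keto reductase AKR1C1 13.0-fold lower and the sulphotransferase SULT1A1 8.44-fold higher. Of 83 glycosyltransferases 17 were lower and 4 higher, with GALNT15 7.31-fold lower and GALNT18 6.73-fold higher (10 lower without replicate 1 of either line, 11 without replicate 3 of either). HEPH, a copper-dependent ferroxidase, was 9.43-fold higher, and the iron exporter SLC40A1 was at least 13.1-fold lower. PDE4A, a cAMP phosphodiesterase, was at 0.474, 0.456 and 0.278 CPM against 16.9, 20 and 23.1 CPM.

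Some large families had few members that passed. Of 59 F-box proteins, adaptors of ubiquitin ligases, 1 was lower (FBXL14) and 0 higher, and FBXL14 did not pass when any library was left out. Of 81 cytosolic ribosomal proteins 4 were lower and 0 higher, led by RPL10 (1.52-fold), and 0 to 2 were lower when any library was left out. Of 38 proteasome subunits PSMB4 was lower, but not when any library was left out, and of 34 tRNA synthetases WARS was higher (528 to 574 CPM against 258 to 333 CPM) but did not pass without replicate 2 or 3 of either line. Of 250 solute carriers 12 (4.8%) were higher and 18 (7.2%) lower, near the 5.45% and 8.78% over all protein-coding genes away from chromosome 18. This balance turned to 31 and 24 with DESeq2, 33 and 22 after GC correction, 21 and 16 with the 6 libraries alone, and 18 and 16 with upper-quartile normalization. Single libraries also moved it (6 higher without 6CD2m replicate 3 or WT replicate 2, 7 without 6CD2m replicate 2, 10 lower without 6CD2m replicate 1 or 3, and 11 without WT replicate 1 or 2).

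**Figure D3:**
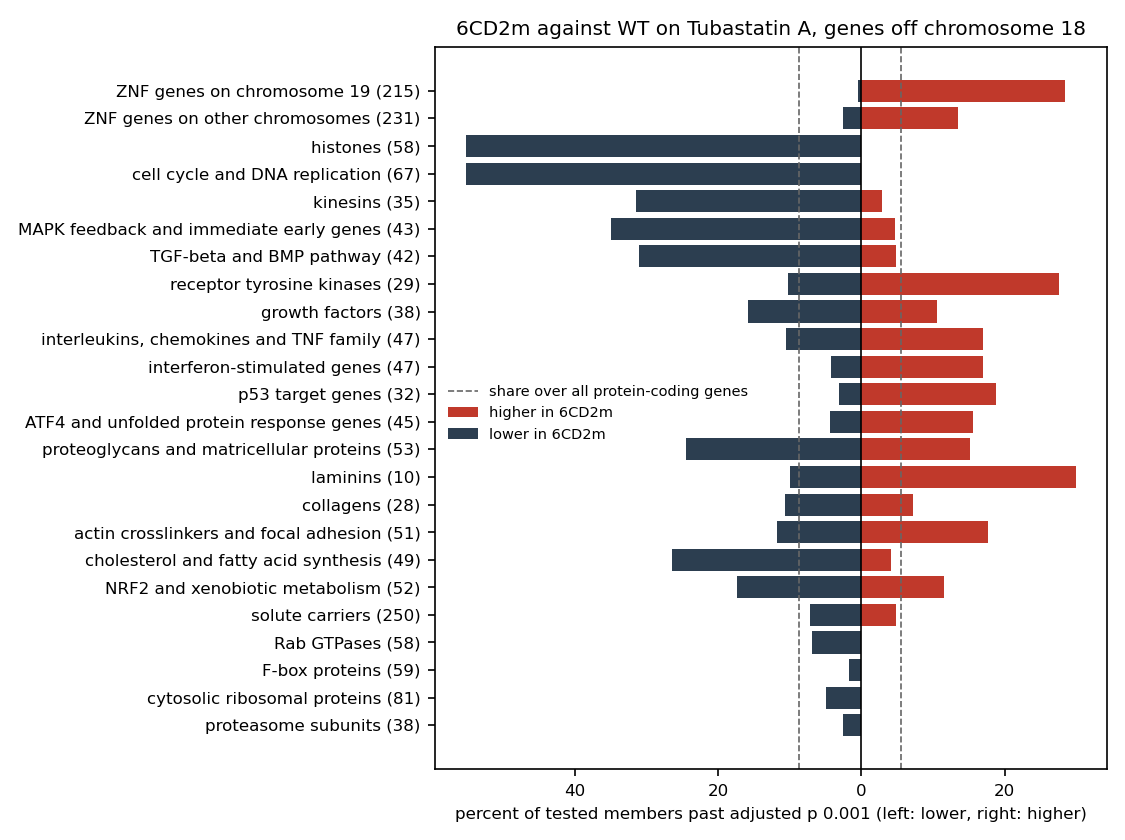
Percent of the tested members of 24 gene groups, away from chromosome 18, that were higher (red, right) or lower (dark, left) in 6CD2m than in WT cells at an adjusted p of 0.001, with the number tested in brackets. Dashed lines are the shares over all protein-coding genes away from chromosome 18 (5.45% higher and 8.78% lower). Histones and cell cycle genes reach furthest to the left, and laminins and chromosome 19 ZNF genes lie furthest to the right. The laminin bar rests on 3 of 10 genes, of which 1 or 2 passed when any library was left out (1 without replicate 2 of either line or WT replicate 3). The collagen bars rest on 2 higher and 3 lower of 28 genes. These became 6 and 3 with DESeq2, 7 and 3 after GC correction, 3 and 2 with upper-quartile normalization, and 4 and 3 with the 6 libraries alone.

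Genes of chromosome 18 were mostly lower. Of 191 protein-coding genes tested there, 97 (50.8%) were lower and 5 higher, and 177 lay below 0, with a median log2 fold change of -0.79 and quartiles of -1.26 and -0.49. On the other 22 chromosomes tested the median ran from -0.27 (chromosome 13) to 0.18 (chromosome 21), and the share that was lower from 2.96% to 17.4%. With all gene types, 116 of 323 chromosome 18 genes passed, 111 of them lower. The median on chromosome 18 was -0.71 with upper-quartile normalization, -0.78 after GC correction and -0.76 with DESeq2. Of the 97 lower genes, 35 differed by under 2-fold, 44 by 2-fold to 4-fold and 18 by more. In windows of 10 megabases the median ran from -0.62 to -1.34, and the lowest lay between 60000001 and 70000000.

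**Figure D4:**
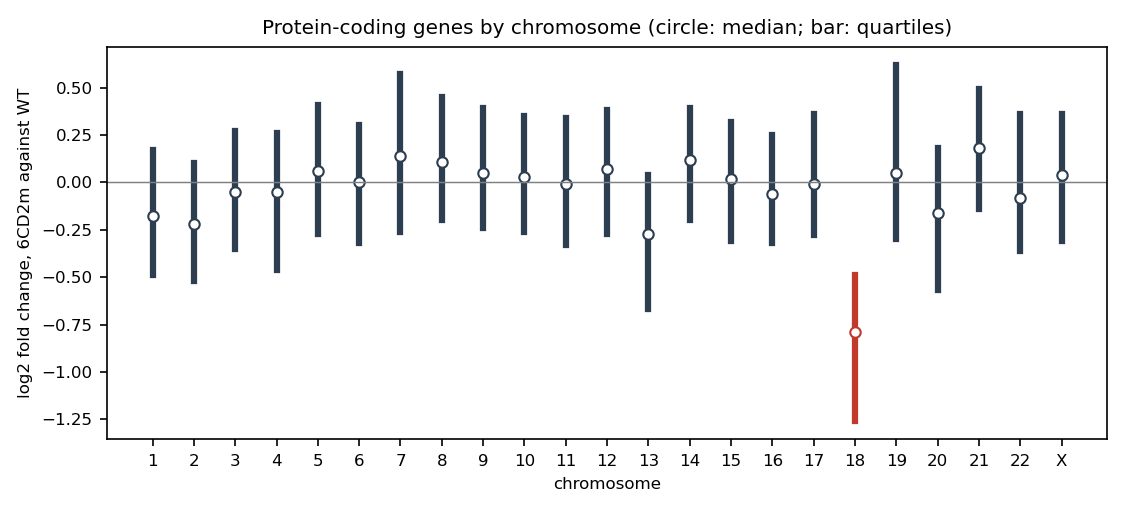
Log2 fold change of protein-coding genes in 6CD2m against WT cells on Tubastatin A, by chromosome. Circles are medians and bars join the quartiles. Chromosome 18 (red) has its upper quartile at -0.49, below the median of every other chromosome.

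The share of protein-coding counts that fell on chromosome 18 was 0.738%, 0.745% and 0.76% in 6CD2m libraries and 1.32%, 1.26% and 1.22% in WT libraries on Tubastatin A. In the 9 other libraries it was between 0.981% and 1.23%, with 6CD1m libraries at 0.981%, 1.07% and 1.12%, so the 6CD2m libraries were the lowest 3 of 15. The mean of 0.748% ± 0.0111 (SD, n = 3) differed from that of the other 12 libraries, 1.17% ± 0.0972 (SD, n = 12), with an exact two-sided permutation p of 0.0022, which is the smallest that 3 against 12 libraries can give. These 12 libraries come from 4 groups that differ in line, inhibitor or duration, and chromosome 18 was set apart with its lower values already known, so this p is not independent evidence. Against the 3 WT libraries alone the exact p was 0.1, also the smallest possible with 3 against 3.

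**Figure D5:**
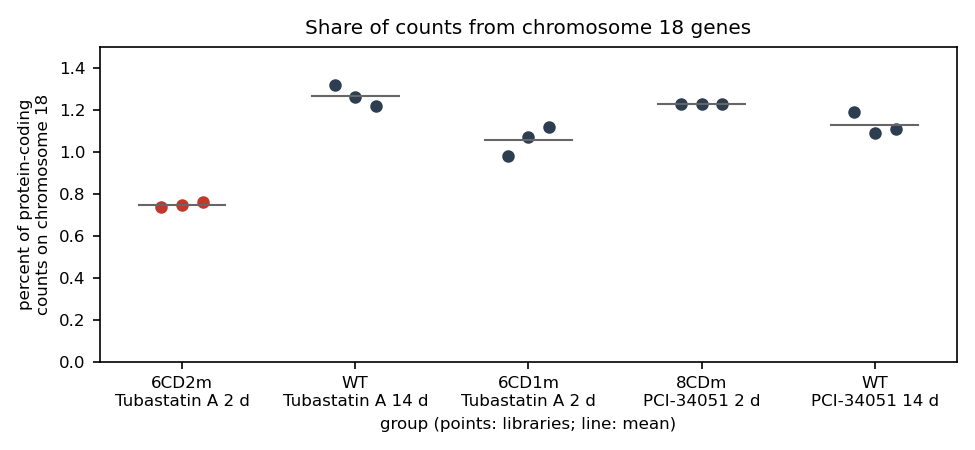
Percent of all protein-coding counts that fell on genes of chromosome 18, by group. Points are libraries and lines are means of 3. The 6CD2m libraries sit between 0.738% and 0.76%, below the 12 others, which start at 0.981%.

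Single genes of chromosome 18 went well beyond the common shift. SERPINB5, the serpin maspin, had 0 counts in all 6CD2m libraries against 15.3, 11.9 and 12.6 CPM in WT cells (at least 80-fold lower). CYB5A, the electron carrier cytochrome b5, was also at 0 in all 3, against 8.57, 7.65 and 7.39 CPM (at least 47.6-fold lower). EPB41L3, a protein of the membrane skeleton, was at 0.296, 0.203 and 0.222 CPM against 250, 187 and 201 CPM. LAMA3, the α3 chain of laminin-332, was 16.6-fold lower, and LAMB3 of chromosome 1, which encodes the β3 chain of the same trimer, was 1.49-fold lower but did not pass with upper-quartile normalization, with a replicate block or without any 1 library but 6CD2m replicate 2. SERPINB2, the plasminogen activator inhibitor PAI-2, was 13.7-fold lower than in WT cells, at 0.237 to 0.501 CPM, and had 0 counts in 6CD1m cells. The 5 chromosome 18 genes that were higher were the following. L3MBTL4, a relative of the MBT chromatin readers, was at 8.05, 8.56 and 7.06 CPM against 0.332, 0.583 and 0.693 CPM (14.6-fold). SLC14A1, a urea transporter, was 6.24-fold higher than in WT cells, but 6CD1m cells had more still (26.9, 33.3 and 35.7 CPM against 8.35, 11.4 and 9.07 CPM in 6CD2m cells). LIPG, the endothelial lipase, was 2.48-fold, the kinase ALPK2 1.82-fold and PSTPIP2, which curves membranes, 1.63-fold higher. Among families with members on the chromosome, 3 of 4 tested serpins, both desmosomal cadherins and 6 of 8 ZNF genes were lower there, whereas 4 of 13 serpins and 92 of 446 ZNF genes elsewhere were higher. Without any 1 library but 6CD2m replicate 3, 2 of these serpins were higher. The myosin light chain MYL12B of chromosome 18 was lower (log2 fold change -1.05, adjusted p = 0.00087). Its relative MYL12A, also on chromosome 18, had a log2 fold change of -0.77 and did not pass (adjusted p = 0.01).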

How the data were processed

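Per the labels, 15 RNA samples were sequenced. According to the submitters' processing notes and the methods, the authors trimmed reads with Trimmomatic 0.39 and quantified genes with RSEM 1.3.3 on Bowtie2 2.4.5, and they deposited expected counts per gene, which need not be whole. These were rounded and tested with edgeR 4.0.16 (R 4.3.3): TMM scaling, the filterByExpr filter and a quasi-likelihood fit of 5 group means over all 15 libraries, with Benjamini-Hochberg adjustment at 0.001. The comparison is 6CD2m minus WT, both on Tubastatin A. CPM values use library sizes after TMM scaling and do not account for gene length, so levels of different genes are not compared. Gene positions are those of GENCODE 29 on GRCh38. The members and gene lists were chosen with earlier results of these data known. Named genes are protein-coding: HDAC6, the cell type markers, the 10 largest log2 fold changes in each direction away from chromosome 18 and the 5 largest on it (adjusted p past 0.001, average log2 CPM of at least 1, groups not overlapping), and up to 2 genes past 0.001 in each direction from each list. Replicates are biological per the methods, and p-values measure the spread between these samples. Standard errors come from the quasi-likelihood fit and include the spread between replicates. SDs are the spread between libraries, and floors cover counting error only. Alternatives were DESeq2 1.42.0, upper-quartile scaling, GC correction, TMM without chromosome 18 or without mitochondrial and small structural RNA genes, other filters on low counts, protein-coding genes alone, the 6 libraries alone, other thresholds, a replicate block and each library left out. The fit was tested on simulated data. Figures were drawn with matplotlib 3.10.9. A few results are not reported here.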

Additional observations from a re-analysis of the deposited data

Results flagged for a closer look

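For 32 of the 320 named genes tested, every 6CD1m library lay on 1 side of every WT library and every 6CD2m library on the other. Both lines were on Tubastatin A for 2 days. These genes were named because they differed from WT cells, so that their difference from 6CD1m cells follows in part from how they were chosen, and no test of it is given. They are given as log2 fold changes of 6CD2m against 6CD1m. The duration of exposure matches in that comparison and is longer in WT cells. The share of all tested genes with the same order of libraries was not determined, so the number 32 is a description.

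Genes higher in 6CD2m cells included the integrin chain ITGB2 (3.59), the protocadherin PCDH1 (1.88), the semaphorin SEMA3F (1.32), the protease MMP9 (4.42) and the unconventional myosin MYO1D (2.04). The LIM homeobox factor LHX6 (2.23), the tRNA synthetase WARS (1.46), the mitochondrial folate enzyme ALDH1L2 (1.60) and the glycosyltransferase B3GNT3 (5.81) were also higher, as were the actin bundler LCP1 (2.36) and the prolyl hydroxylase P3H2 (3.98). The collagen chaperone SERPINH1 (1.41), the YAP target ANKRD1 (2.45), the interferon-induced IFITM1 (2.76), the poliovirus receptor PVR (0.94), the small heat shock protein HSPB8 (3.30), the ferroxidase HEPH (3.98), the matrix protein TNC (1.74) and, on chromosome 18, the kinase ALPK2 (1.10) complete this side. MMP9 had a mean of 17 CPM in 6CD2m, 2.18 in WT and 0.761 in 6CD1m cells.

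Genes lower in 6CD2m cells were the Eph receptor EPHB6 (-3.81), the protease inhibitor TIMP3 (-2.12), the keratin KRT15 (-1.22), the mitotic kinesin KIF18B (-1.84), the dynein chain WDR34 (-0.99) and the non-muscle myosin MYH10 (-2.56). The transcription factors SOX7 (-4.26), FOXM1 (-1.34), ATOH8 (-3.81) and TWIST1 (-1.49), the cytochrome CYP27C1 (-2.28) and UHRF1 (-1.25) were lower too. IGFBP3, a binding protein of insulin-like growth factors, had a fitted value of -7.84, which depends on the fit because it was at 0 CPM in 6CD2m, 0.68 in WT and 1.71 in 6CD1m cells. SOX7 had a mean of 0.564 CPM in 6CD2m, 2.79 in WT and 11 in 6CD1m cells.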

How the results depend on the processing

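The number of genes that differed between 6CD2m and WT cells was 2309 in the fit described. It was 3642 with DESeq2, 6409 at an adjusted p of 0.05 and 1347 when a fold of 2 or more was also required. It was 1440 to 1635 when each library was left out in turn, which also leaves fewer samples to estimate the spread. The number higher was 1681 with DESeq2, 1555 after GC correction, 2876 at 0.05 and 585 to 699 with a library left out. The number lower was 3533 at 0.05, 685 with the fold limit and 799 to 937 with a library left out. For chromosome 18, 116 genes became 201 at 0.05 and 74 with the fold limit. For 6CD2m against 6CD1m, 2577 became 4272 with DESeq2 and 1423 to 2317 with a library left out, namely 1604, 1464 and 1423 without 6CD2m replicates 1, 2 and 3 and 1502 without 6CD1m replicate 2. With the replicate number as a block the counts were 1704 for the comparison with WT cells and 1722 for that with 6CD1m cells, and 2483 with the block and GC correction together. Same-numbered libraries of 6CD2m and WT cells deviated from their group means with correlations of -0.23, -0.151 and -0.0328. For 6CD2m and 6CD1m cells these correlations were 0.189, 0.0274 and 0.057. The values give no clear sign of pairing by number, and a batch shared by number was not tested. The difference in the chromosome 18 share kept its direction, between -0.35 and -0.43. Of 289 named genes that passed, 191 did so under all of 11 alternatives, 52 did not pass with the block, and none changed sign. The 11 do not include the fits with a library left out. The balance of higher and lower calls turned under another scaling or test for solute carriers, NRF2 targets, tubulins, Wnt genes, collagens and the other genes of chromosome 19, as given with each. The cause of these shifts was not tested. Depth limits genes with few reads, for which a difference may not have been detectable.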
